A study of Mus musculus with 24 samples.

Results

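A set of 100 zinc finger genes was followed from the MII oocyte to the 4-cell embryo of the mouse. Members are genes with a symbol made of Zfp and a number whose mean FPKM (fragments mapped to a gene, relative to its length and to all mapped fragments) was at least 5 over the 4 control libraries of the 2-cell stage. Zfp42, Zfp57 and Zfp352 were set aside, which left 100 of 341 such genes, among 46078 genes in the table. The members were thus chosen by their levels in those 4 control libraries, which are given as a description, and no comparison that uses them is read as a test. Just inside the threshold lay Zfp770 with a mean of 5.34 FPKM, Zfp120 with 5.27 FPKM and Zfp935 with 5.26 FPKM. Just outside it lay Zfp628 and Zfp384 with 4.96 FPKM each and Zfp868 with 4.93 FPKM.

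Most Zfp genes encode proteins with tandem C2H2 fingers, short loops held by a zinc ion of which several in a row read a DNA sequence. Many of these proteins also carry a KRAB domain, which binds the corepressor TRIM28; TRIM28 in turn recruits SETDB1, HP1 proteins and histone deacetylases, and so silences retroelements and protects imprinted loci in early embryos. Others are promoter-binding activators, partners of chromatin enzymes, RNA-binding proteins or factors of ribosome assembly. The symbol joins them by a structural motif and not by a shared function.

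RNA was sequenced from pools of whole embryos and from oocytes, in 24 libraries that form 12 groups of 2. At the 2-cell and at the 4-cell stage there were PR-DUB overexpression (OE) and control (CTR) groups and KDM6B OE and CTR groups, all from wild-type B6/DBA females crossed with wild-type PWK males. PR-DUB, a complex of BAP1 with an ASXL protein, takes ubiquitin off lysine 119 of histone H2A, and KDM6B takes methyl groups off lysine 27 of histone H3. At the 4-cell stage there were also maternal Eed knockout (matKO) and CTR groups, from females with a B6/129 mixed background mated to wild-type PWK males; EED is a core subunit of PRC2, the enzyme that methylates lysine 27. Late 2-cell embryos from B6/DBA parents and MII oocytes of B6/DBA females, arrested in the second meiotic division, completed the set, with no manipulation named. A library held 15 embryos in both PR-DUB 2-cell groups, 16 in PR-DUB OE 4-cell, 19 in PR-DUB CTR 4-cell, 17 in KDM6B OE 2-cell and 17 or 18 in KDM6B CTR 2-cell; no source used here gives the other numbers or what the CTR embryos received. All groups have n = 2 libraries.

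The libraries listed 10855 to 11801 genes at 1 FPKM or more. MII oocyte markers summed to 315 to 366 FPKM in late 2-cell embryos and to 4445 to 4635 FPKM in MII oocytes, and 2-cell markers to 213 to 247 FPKM in late 2-cell embryos and 33.4 to 35.1 FPKM in MII oocytes. Of 10 cumulus cell markers, 1 reached 1 FPKM in embryos (Nr5a2, which embryos express themselves) and 3 in MII oocytes. Eed stood at 22.7 and 26.9 FPKM in matKO libraries and at 28.5 and 33.1 FPKM in their CTR libraries, so its level does not separate the labels clearly; no source used here gives the deleted part of the gene. KDM6B OE 2-cell libraries listed Kdm6b with 14237 and 9809 FPKM, against 14588 and 14735 FPKM in KDM6B CTR 2-cell libraries, while PR-DUB libraries had 5 to 26 FPKM, so its level does not separate OE from CTR at that stage either. At the 4-cell stage Kdm6b had 597 and 547 FPKM in KDM6B OE libraries, against 571 and 401 FPKM in KDM6B CTR libraries. The KDM6B CTR libraries thus held Kdm6b far above PR-DUB libraries at both stages. KDM6B OE against CTR therefore does not contrast high with low Kdm6b RNA. Bap1 had 10.6 and 8.81 FPKM in PR-DUB OE 4-cell libraries, against 6.02 and 6.20 FPKM in PR-DUB CTR 4-cell libraries, and Asxl1 had 7.60 and 10.8 FPKM in PR-DUB OE, against 12.9 and 12.2 FPKM in PR-DUB CTR.

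The members spanned a wide range of levels. Over the 4 CTR 2-cell libraries their means ran from 5.26 to 215 FPKM with a median of 17.8 FPKM, and the quartiles were 9.43 and 33.3 FPKM. The highest was Zfp296, a transcription factor of pluripotent and germ cells, with 215 FPKM. Next came Zfp131, a BTB-domain transcription factor, with 125 FPKM, Zfp106, an RNA-binding protein, with 114 FPKM, Zfp664 with 102 FPKM and Zfp655 with 101 FPKM. Zfp622, whose yeast counterpart matures the large ribosomal subunit, had 89.4 FPKM, Zfp707 had 79.8 FPKM, and Zfp217, known in human cells as a partner of LSD1 and CoREST, had 66.0 FPKM. Zfp791 with 61.9 FPKM and Zfp706 with 61.5 FPKM closed the list of 10, which together held 36.5% of the members' summed level.

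**Figure D1:**
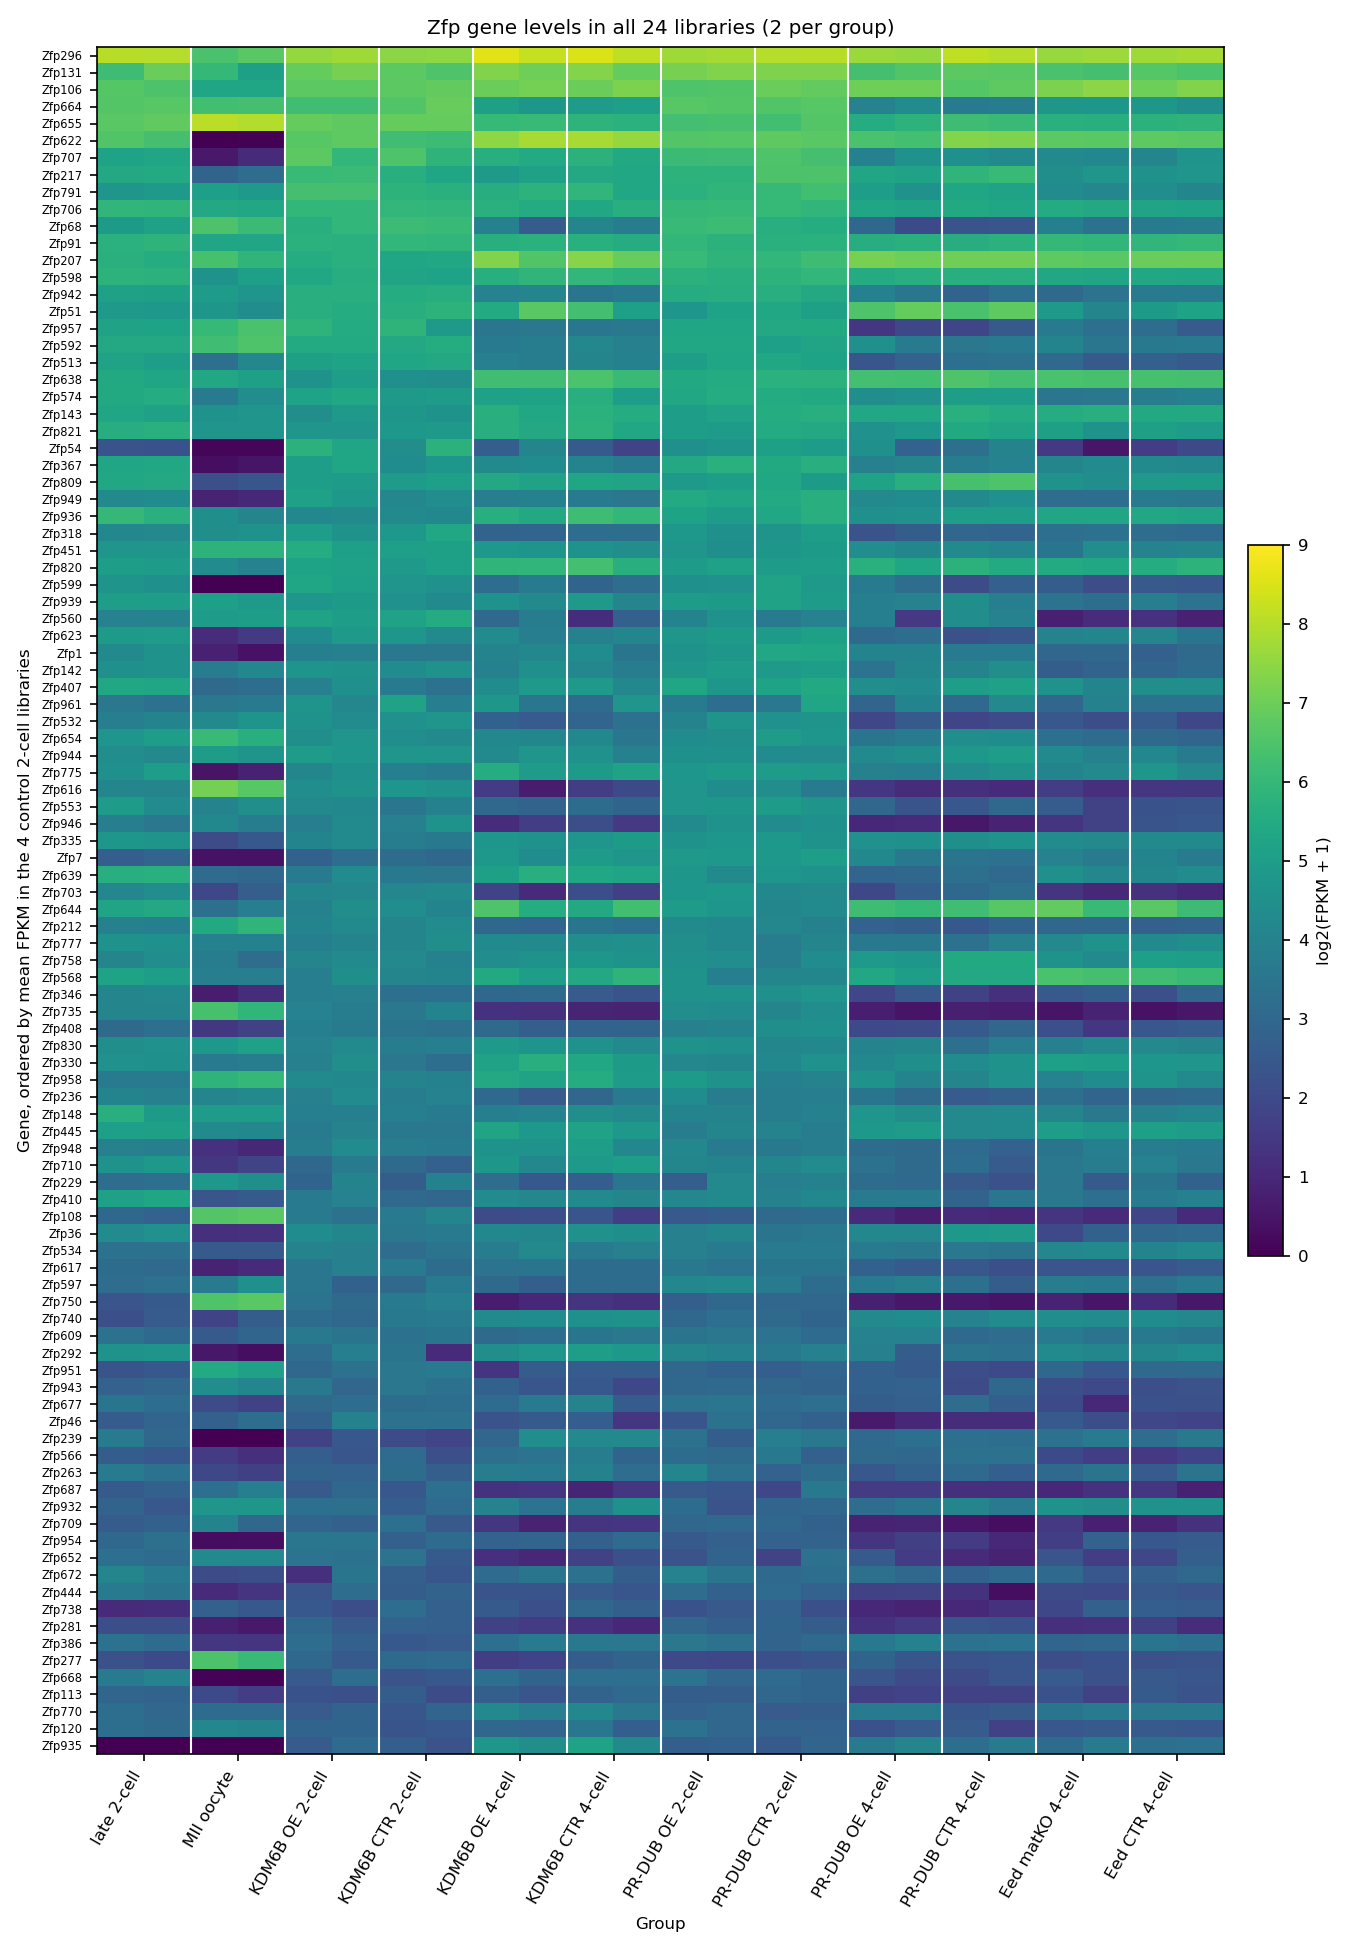
Level of the 100 members in each of the 24 libraries, as log2(FPKM + 1) in colour, with libraries in columns by group and members in rows. Of the 100 members, 38 stood at 5 FPKM or more in all 24 libraries, and the number at 5 FPKM or more was lowest in the MII columns.

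Of the 100 members, 38 stood at 5 FPKM or more in all 24 libraries, and 71 at 1 FPKM or more. The number at 5 FPKM or more was 91 in each late 2-cell library, 64 and 66 in MII oocytes and 90 to 98 in the 2-cell libraries. At the 4-cell stage it was 69 to 76 in PR-DUB, 81 to 87 in KDM6B and 70 to 73 in Eed libraries. The members' share of a library's summed FPKM was 0.485% to 0.525% in late 2-cell embryos and 0.676% to 0.712% in MII oocytes. These shares set separately made tables side by side. The share was 0.522% to 0.573% in PR-DUB and 0.535% to 0.566% in KDM6B 2-cell libraries, 0.289% to 0.328% in PR-DUB and 0.382% to 0.473% in KDM6B 4-cell libraries, and 0.296% to 0.316% in Eed libraries. The share also depends on a library's summed FPKM, which ran from 355172 in an MII oocyte library to 755389 in a PR-DUB CTR 4-cell library. The members' own summed FPKM was 2753 and 2775 in late 2-cell embryos, against 2529 and 2440 in MII oocytes. In PR-DUB OE it was 2141 and 2114 at the 4-cell stage, against 2856 and 2877 at the 2-cell stage. In KDM6B OE it was 2936 and 2798, against 2711 and 2796. FPKM are shares of a library, so fewer cells of a kind and less RNA per cell cannot be told apart.

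A KRAB-A box was found in the coding sequence of 42 of 99 members (42.4%), and in 144 of 232 Zfp genes below the threshold (62.1%); Zfp939 is annotated as a pseudogene and has no coding sequence. KRAB members had a median of 11 C2H2 fingers by motif and the others 7, with up to 36. Their median levels in the CTR 2-cell libraries were 16.0 and 17.8 FPKM. The members lie on 18 chromosomes, with 15 on chromosome 7 (5 of them with a KRAB-A box) and 13 on chromosome 17 (11 with one), and 38 lie within 1 Mb of another member. Because tandem duplication made many KRAB genes, reads can fit more than 1 of them. No stretch of 76 bases, the read length, was shared with another gene in 62 members, whereas Zfp935 shared 100% of its stretches, Zfp534 52.5%, Zfp617 36.4%, Zfp932 26.1%, Zfp566 14.3%, Zfp652 11.4% and Zfp7 11%, so the values of these 7 are uncertain. A gene on the other strand overlaps 43 members, and no source used here says whether counting used strand. A gene on the same strand overlaps 22 members, among them Zfp445, Zfp638, Zfp644 and Zfp809.

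RefSeq promoters of 300 bases (250 before the start and 50 after it, GRCm38.p6, of the mm10 family) were matched to 84 of the 100 members. Their median GC content was 56.3%, against 52.7% over 27025 genes, and their median number of CG pairs 17, against 7. For each member the RefSeq start nearest to the 5′ end of the gene in GENCODE vM21 was taken. For all genes and for all Zfp genes the start with the lowest coordinate was taken. The sides were thus not chosen alike, and their differences were not tested. The KRAB members had a median of 10 CG pairs and the others 19.5. The TATA box letters TATAAA, read on both strands, were found in 3.57% of the members' promoters and in 14.1% of all; CCAAT was found in 47.6% and 37.8%. The 279 promoters of all Zfp genes matched had a median GC content of 55.0% and 15 CG pairs, with TATAAA in 7.53% and CCAAT in 45.2%. Promoters of 3 members that recur in the stage comparisons are shown 5′ to 3′ with CG pairs in capitals: Zfp735 (chr11:73688528-73688827, plus strand, 40.3% GC, 2 CG pairs) and Zfp616 (chr11:74060647-74060946, plus strand, 42.3% GC, 6 CG pairs), KRAB genes that were lower at each step described below, and Zfp644 (chr5:106696781-106697080, minus strand, 55.7% GC, 10 CG pairs), which was higher at each. RefSeq's starts of Zfp616 and Zfp644 are not those of GENCODE vM21, so these windows belong to the RefSeq transcript.
Zfp735: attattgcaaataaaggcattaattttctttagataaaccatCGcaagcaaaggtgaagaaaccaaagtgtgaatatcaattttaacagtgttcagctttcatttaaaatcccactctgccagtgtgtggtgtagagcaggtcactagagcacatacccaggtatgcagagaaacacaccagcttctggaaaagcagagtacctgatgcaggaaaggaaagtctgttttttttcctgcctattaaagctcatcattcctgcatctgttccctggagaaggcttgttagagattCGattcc
Zfp616: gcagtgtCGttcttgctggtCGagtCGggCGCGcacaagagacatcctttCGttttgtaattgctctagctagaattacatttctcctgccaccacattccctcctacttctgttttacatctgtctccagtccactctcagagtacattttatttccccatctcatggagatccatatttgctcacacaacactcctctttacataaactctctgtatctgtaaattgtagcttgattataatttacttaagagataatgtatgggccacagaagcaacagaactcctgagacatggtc
Zfp644: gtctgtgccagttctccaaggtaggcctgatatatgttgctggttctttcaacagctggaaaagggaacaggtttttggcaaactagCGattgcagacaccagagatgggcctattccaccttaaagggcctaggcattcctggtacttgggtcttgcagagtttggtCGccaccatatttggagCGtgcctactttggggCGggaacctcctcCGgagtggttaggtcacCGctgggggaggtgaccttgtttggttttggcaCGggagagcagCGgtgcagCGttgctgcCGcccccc

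Chromosome 17 holds a pair of divergent KRAB gene pairs whose starts face each other: Zfp943 and Zfp942 start 88 bases apart and Zfp758 and Zfp944 53 bases apart. The run between and around the starts is shown for each pair on the plus strand, 5′ to 3′ with CG pairs in capitals, because the 62 bases of the Zfp758 and Zfp944 run (chr17:22361401-22361462, 66.1% GC, 7 CG pairs) are contained letter for letter in the 94 bases of the Zfp943 and Zfp942 run (chr17:21962465-21962558, 64.9% GC, 9 CG pairs). Among all RefSeq promoters, those of these 4 genes alone held the 62 bases.
Zfp758 and Zfp944: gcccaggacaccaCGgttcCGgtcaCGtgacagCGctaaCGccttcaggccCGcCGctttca
Zfp943 and Zfp942: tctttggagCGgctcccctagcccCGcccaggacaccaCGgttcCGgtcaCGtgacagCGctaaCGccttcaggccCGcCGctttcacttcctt

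The 4 genes had unlike levels despite this run. In late 2-cell embryos Zfp758 averaged 18.3 FPKM, against 10.5 FPKM in MII oocytes, while Zfp943 averaged 6.47 FPKM in late 2-cell embryos, against 18.4 FPKM in MII oocytes. Zfp758 rose by 0.76 on the log2(FPKM + 1) scale (limma adjusted p = 0.0254), whereas Zfp943 fell by 1.37 (limma adjusted p = 0.000577) and Zfp944 by 0.48 (limma adjusted p = 0.0302). Zfp942 averaged 34.1 FPKM in late 2-cell embryos and 27.8 FPKM in MII oocytes. In PR-DUB OE embryos Zfp942 fell to a mean of 12.6 FPKM at the 4-cell stage, against 47.5 FPKM at the 2-cell stage (log2 change -1.85), while Zfp758 averaged 26.8 FPKM at the 4-cell stage and 21.1 FPKM at the 2-cell stage (log2 change 0.33, not called).

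The MII oocyte and the late 2-cell embryo lie before and after fertilisation and the start of transcription from the embryo's own genome. Between them 83 of 99 members tested changed: 56 were higher and 27 lower in late 2-cell embryos (limma, Benjamini-Hochberg adjusted p under 0.05, as for every call here). Of all 13237 genes tested 38% were higher and 44.6% lower, and of the genes at 5 FPKM or more by the same 2-cell mean 46.1% were higher and 35.1% lower. The groups did not overlap in 59 members that were higher and 31 that were lower, beside 42.1% and 49.3% of all genes. The members' median log2 change was 0.76 and that of all genes -0.20. After rescaling each library by its median ratio 61 members were higher and 22 lower with a median of 1.05, while the tally of all genes turned to 5758 higher and 5160 lower with a median of 0.10. The rule asks for a level at the 2-cell stage, so a tilt towards higher is built into the choice; the other Zfp genes had 24.2% higher and 62.4% lower. Among members with a KRAB-A box 20 were higher and 14 lower of 41 tested (median 0.29), and among those without 36 and 13 of 57 (median 0.97). Zfp935 was listed at 0 in all 4 libraries of this table and not tested. The oocyte and 2-cell markers given above move with this comparison, and their part in it was not tested.

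Of the members, 10 stood under 1 FPKM in both MII oocyte libraries and at 5 FPKM or more in both late 2-cell libraries: Zfp1, Zfp7, Zfp239, Zfp292, Zfp367, Zfp599, Zfp622, Zfp668, Zfp775 and Zfp954. These 10 passed the filter of 1 FPKM in 2 libraries only through the late 2-cell libraries. For them only a rise could be called, so nothing is read from the direction of their calls or from their p-values. Zfp622, the ribosome maturation factor, stood at 93.4 and 79.8 FPKM in late 2-cell embryos, against 0 and 0.0365 FPKM in MII oocytes (log2 change 6.42, SE 0.16, limma adjusted p = 7.51e-06). Zfp367 stood at 38.5 and 40.3 FPKM in late 2-cell embryos and at 0.257 and 0.419 FPKM in MII oocytes, a ratio of means of 117 (log2 change 4.92, SE 0.16). Zfp599, a KRAB gene, had 24.2 and 21.8 FPKM in late 2-cell embryos and was listed at 0 in both MII oocyte libraries. These transcripts were near or at 0 in both oocyte libraries and well above it in both embryo libraries. Zfp707, also a KRAB gene, had 36.4 and 39.5 FPKM in late 2-cell embryos and 0.536 and 1.08 FPKM in MII oocytes (ratio 47.0). Zfp292, a large nuclear protein, had 23.9 and 24 FPKM in late 2-cell embryos and 0.483 and 0.265 FPKM in MII oocytes (ratio 64.0). Log2 changes of 4.13 for Zfp775, 3.80 for Zfp1 and 3.79 for Zfp668 followed.

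Transcripts of 3 members were at 20 FPKM or more in both oocyte libraries and under 5 FPKM in both late 2-cell libraries. Zfp750, known in human skin as a regulator of epidermal differentiation, had 4.21 and 4.90 FPKM in late 2-cell embryos, against 91.8 and 102 FPKM in MII oocytes (log2 change -4.14, SE 0.14, limma adjusted p = 1.12e-05). Zfp277, known in mouse fibroblasts as a partner of the Polycomb protein BMI1, had 3.73 and 3.10 FPKM in late 2-cell embryos, against 88.1 and 65.6 FPKM in MII oocytes (log2 change -4.13, SE 0.19). The 3rd was Zfp951, with 4.05 and 4.64 FPKM in late 2-cell embryos, against 44.5 and 34.2 FPKM in MII oocytes. In each of these the groups lay far apart. Zfp108 fell by 3.74 on the log2 scale, Zfp616 by 2.77, Zfp958 by 2.23, Zfp932 by 2.08 and Zfp735 by 2.04; of these Zfp616 kept 16.4 and 16.3 FPKM in late 2-cell embryos, against 137 and 100 FPKM in MII oocytes. All 16 named members were called under every alternative in which they were tested. Those under 1 FPKM in both MII oocyte libraries fail the filter when a late 2-cell library is left out. They were not tested there, and nothing is read from their calls under the other alternatives.

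**Figure D2:**
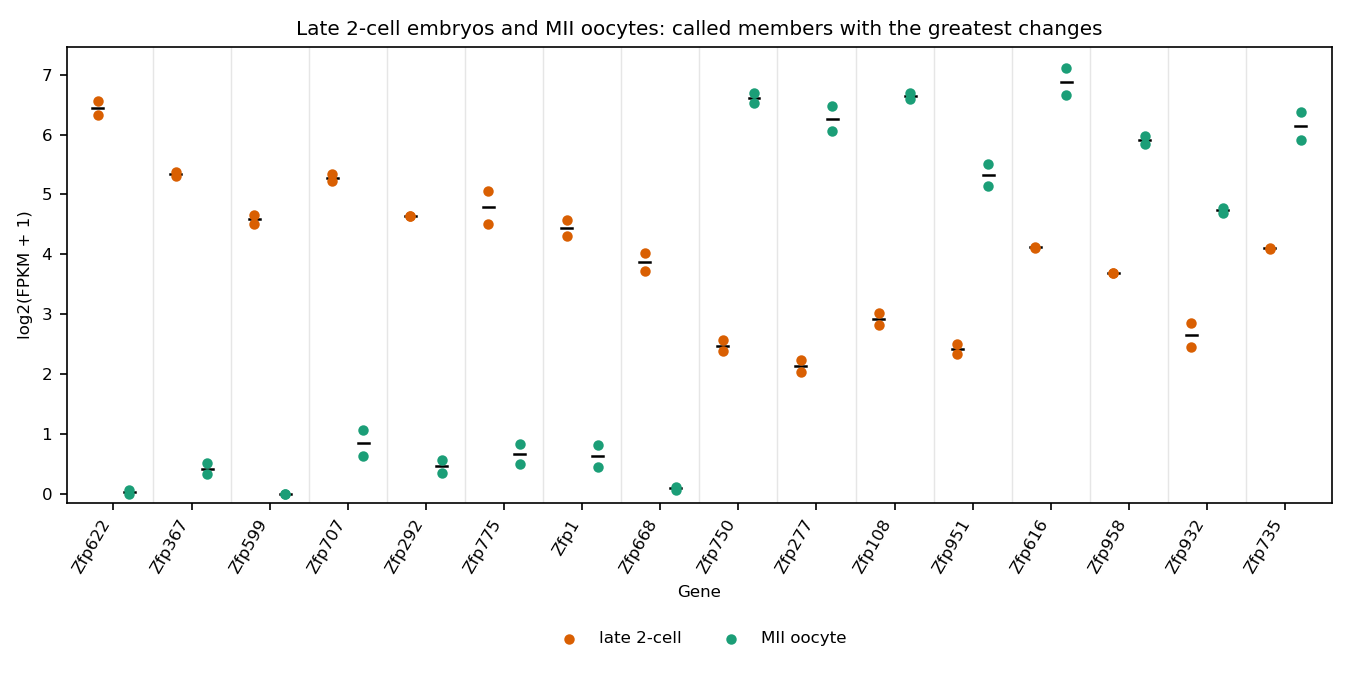
log2(FPKM + 1) of the 8 members with the largest called rise and the 8 with the largest called fall, in late 2-cell embryos and MII oocytes; points are libraries (n = 2 each) and bars their means. The groups do not overlap in any of the 16, and Zfp622 and Zfp599 lie at or near 0 in both MII oocyte libraries.

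By textbook role, the KRAB repressors of retroelements and imprinted loci were called in both directions. Of 8 tested, 5 were higher in late 2-cell embryos (Zfp445, Zfp568, Zfp809, Zfp819 and Zfp936) and 3 lower (Zfp708, Zfp738 and Zfp932); Zfp708 and Zfp819 are not members. Zfp809, which binds the primer binding site of murine leukaemia viruses, had 40.1 and 42.3 FPKM in late 2-cell embryos, against 3.62 and 4.30 FPKM in MII oocytes (log2 change 3.09, SE 0.14). Zfp445, which guards imprinting control regions, had 32.9 and 33.9 FPKM in late 2-cell embryos, against 18.7 and 17.3 FPKM in MII oocytes. Zfp568, which represses a placental Igf2 transcript, had 36.6 and 32.3 FPKM in late 2-cell embryos, against 13.2 and 13.3 FPKM in MII oocytes. Each of these had both embryo libraries above both oocyte libraries. The promoter-binding transcription factors had 6 of 8 higher and 0 lower, among them Zfp296 with 259 and 253 FPKM in late 2-cell embryos, against 85.4 and 103 FPKM in MII oocytes. The RNA-binding group had 6 of 9 higher and 1 lower, among them Zfp36, which recruits the decay machinery to AU-rich transcripts, with 19.3 and 22.3 FPKM in late 2-cell embryos, against 1.38 and 1.44 FPKM in MII oocytes. Of 6 partners of chromatin enzymes tested, Zfp217 and Zfp644 were higher and 4 were lower. In the same libraries the corepressor Trim28, which the KRAB proteins need, rose to a mean of 139 FPKM in late 2-cell embryos, against 53.4 FPKM in MII oocytes, while its methyltransferase partner Setdb1 fell to 22.9 FPKM, against 78.9 FPKM in MII oocytes. Of 38 genes of that pathway 13 were higher and 16 lower. The counts of these lists stand beside the 38% of all genes that were higher and the 44.6% that were lower, and whether a list differs from them was not tested.

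The 4-cell and 2-cell stages were compared in OE libraries, none of which chose the members. Because the rule asks for a level at the 2-cell stage, a tilt towards lower at the 4-cell stage is still built into the choice. In PR-DUB OE embryos 14 of 100 members were higher at the 4-cell stage and 53 lower, beside 29.3% of all 15055 genes higher and 28.8% lower. Genes at 5 FPKM or more by the 2-cell mean of the rule, the nearer yardstick, were 25.6% higher and 42.9% lower. In KDM6B OE embryos 26 members were higher and 37 lower, beside 34% and 25.4% of all genes, and 32.9% and 37.3% of those at 5 FPKM or more. No overlap between the stages was found for 21 higher and 72 lower members in PR-DUB OE (40.2% and 38.8% of all genes) and for 38 and 47 in KDM6B OE (43.6% and 33.7%). The members' median log2 change was -0.76 in PR-DUB OE (all genes 0.02) and -0.18 in KDM6B OE (all genes 0.18). After rescaling each library by its median ratio, which brought the median of all genes in KDM6B OE to 0.01, 20 members were higher and 45 lower there, with a median of -0.43. KRAB members had 5 higher and 22 lower in PR-DUB OE and 8 and 16 in KDM6B OE; the others had 9 and 30, and 18 and 21. The KDM6B comparison sets libraries of the later sequencing set against NextSeq550 libraries, so stage and run cannot be told apart in it. MII oocyte markers summed to 80.4 to 81.8 FPKM at the 4-cell stage, against 379 to 383 FPKM at the 2-cell stage, in PR-DUB OE, and to 103 to 110 FPKM, against 521 to 600 FPKM at the 2-cell stage, in KDM6B OE. The 2-cell markers summed to 526 and 181 FPKM at the 4-cell stage, against 291 to 311 FPKM at the 2-cell stage, in PR-DUB OE, and to 128 to 172 FPKM, against 359 to 531 FPKM at the 2-cell stage, in KDM6B OE. The part of these markers in the counts was not tested.

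**Figure D3:**
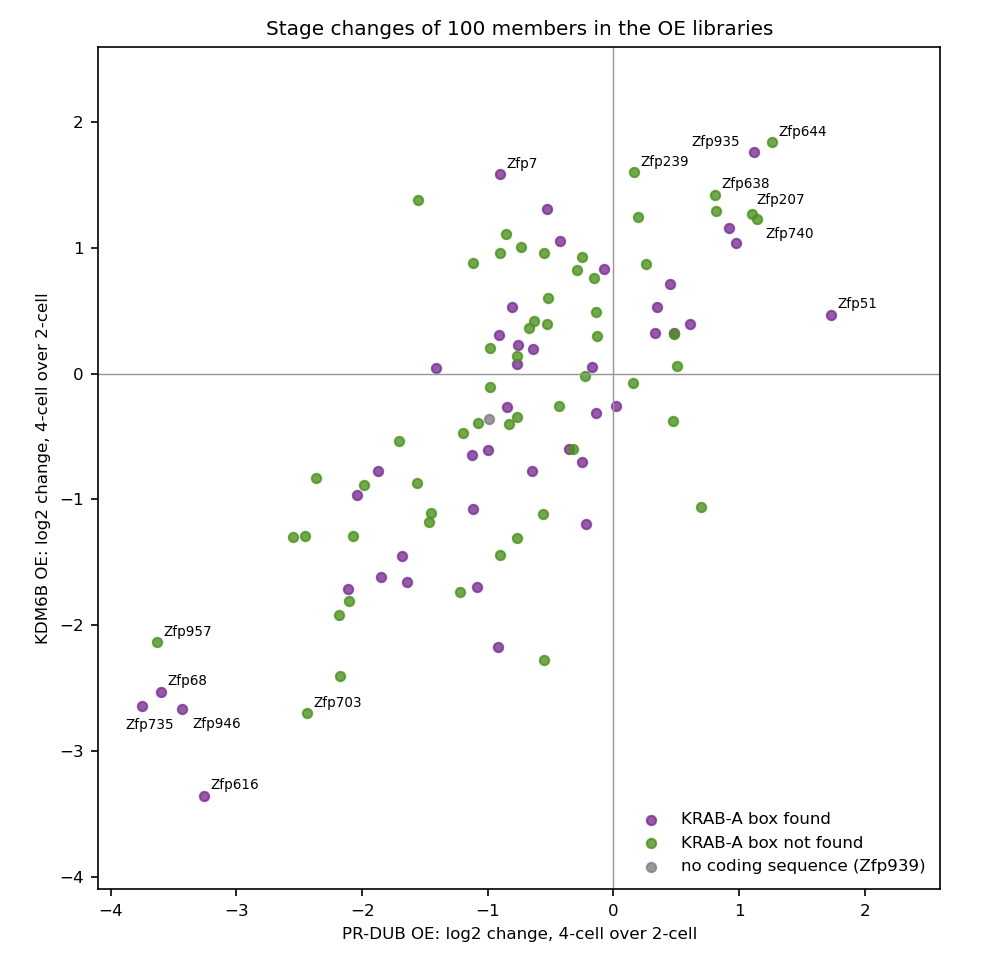
log2 change of each member at the 4-cell stage over the 2-cell stage, in KDM6B OE embryos (vertical) and in PR-DUB OE embryos (horizontal), with members coloured by whether a KRAB-A box was found. Zfp644 lies high on both axes and Zfp735, Zfp616, Zfp946 and Zfp68 lie low on both.

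The comparisons use no library in common, and 9 members were higher in both (64.3% of the PR-DUB OE list and 34.6% of the KDM6B OE list) and 31 lower in both (58.5% and 83.8%). Over all genes the same shares were 75.5% and 65.1% for higher in both and 69.4% and 78.8% for lower in both, and over genes at 5 FPKM or more by the rule's mean 83.5% and 65.0%, and 73.9% and 84.9%. The 9 were Zfp106, Zfp207, Zfp445, Zfp568, Zfp638, Zfp644, Zfp740, Zfp770 and Zfp935. Zfp644, a partner of the H3K9 methyltransferases G9a and GLP, had 73.1 and 64.1 FPKM at the 4-cell stage, against 30.2 and 25.8 FPKM at the 2-cell stage, in PR-DUB OE embryos (log2 change 1.26). In KDM6B OE embryos Zfp644 had 91.3 and 46.4 FPKM at the 4-cell stage, against 14.5 and 21.0 FPKM at the 2-cell stage (log2 change 1.84, SE 0.32, limma adjusted p = 0.000323). Its 4-cell libraries lay above its 2-cell libraries in both. Zfp207, which loads BUB3 onto kinetochores, had 142 and 127 FPKM at the 4-cell stage, against 68.2 and 56.7 FPKM at the 2-cell stage, in PR-DUB OE (log2 change 1.10, SE 0.21, limma adjusted p = 0.000818). Zfp638, a DNA-binding protein that in human cells brings the HUSH complex to retroviral DNA, had 74.8 and 74.9 FPKM at the 4-cell stage, against 23.8 and 31.2 FPKM at the 2-cell stage, in KDM6B OE (log2 change 1.42, SE 0.15, limma adjusted p = 5.46e-06). Zfp51, a KRAB gene, had 91.0 and 116 FPKM at the 4-cell stage, against 25.5 and 35.9 FPKM at the 2-cell stage, in PR-DUB OE (log2 change 1.73), and Zfp740 rose there by 1.14. Zfp935, with all its stretches shared, had 11.8 and 16.1 FPKM at the 4-cell stage, against 5.67 and 5.97 FPKM at the 2-cell stage, in PR-DUB OE; that call was lost without PR-DUB OE 4-cell replicate 2 (log2 change 0.91, limma adjusted p = 0.069). In KDM6B OE Zfp935 rose by 1.77, Zfp239 by 1.6 and Zfp7 by 1.59.

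The named falls, of 2.53 to 3.75 on the log2 scale, were each larger than the named rises, of 1.10 to 1.84. A choice by level at the 2-cell stage favours this, so nothing is read from it. Zfp735 had 0.692 and 0.413 FPKM in PR-DUB OE embryos at the 4-cell stage, against 20.3 and 19.3 FPKM at the 2-cell stage (log2 change -3.75, SE 0.21, limma adjusted p = 3.58e-08). In KDM6B OE embryos it had 1.45 and 1.29 FPKM at the 4-cell stage, against 14.9 and 12.8 FPKM at the 2-cell stage (log2 change -2.64). Zfp616, its neighbour in the same chromosome 11 region, had 1.70 and 1.19 FPKM at the 4-cell stage, against 24.9 and 19.9 FPKM at the 2-cell stage, in PR-DUB OE (log2 change -3.26). In KDM6B OE Zfp616 had 2.02 and 0.631 FPKM at the 4-cell stage, against 20.2 and 23.4 FPKM at the 2-cell stage (log2 change -3.36, SE 0.30, limma adjusted p = 1.65e-06). Both genes were thus near 1 FPKM at the 4-cell stage in all 4 OE libraries. Zfp957 fell by 3.63 in PR-DUB OE, to 1.71 and 2.84 FPKM at the 4-cell stage, against 38.5 and 39.5 FPKM at the 2-cell stage. Zfp68 fell by 3.60 in PR-DUB OE and by 2.53 in KDM6B OE, and Zfp946 by 3.43 and 2.67. Zfp703, a corepressor of the NET family, fell by 2.70 in KDM6B OE. Of the 10 named members of each comparison, 9 in PR-DUB OE and 10 in KDM6B OE were called under every alternative run. Another 8 members were called in opposite directions in the comparisons: Zfp7, Zfp263, Zfp277, Zfp639, Zfp710, Zfp775, Zfp830 and Zfp936. The share of such genes among all genes was not counted, so nothing is read from this number. Zfp936 had 22.2 and 22.7 FPKM at the 4-cell stage, against 36.5 and 29.5 FPKM at the 2-cell stage, in PR-DUB OE, and 49.3 and 43.1 FPKM at the 4-cell stage, against 17.3 and 18.5 FPKM at the 2-cell stage, in KDM6B OE.

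By role, the counts below stand beside 29.3% of all genes higher and 28.8% lower in PR-DUB OE and 34% and 25.4% in KDM6B OE, and differences between the lists were not tested. Of 9 KRAB repressors of retroelements and imprinted loci tested, 4 were higher and 2 lower at the 4-cell stage in PR-DUB OE, and 4 were higher and 0 lower in KDM6B OE. Zfp445 had 26.8 and 30.1 FPKM at the 4-cell stage, against 13.2 and 16.1 FPKM at the 2-cell stage, in PR-DUB OE (log2 change 0.92, SE 0.19). Zfp568 had 40.5 and 32.1 FPKM at the 4-cell stage, against 23.3 and 13.7 FPKM at the 2-cell stage, in PR-DUB OE (log2 change 0.97, SE 0.27). Both were also higher in KDM6B OE, by 1.16 for Zfp445 and 1.04 for Zfp568. Of 8 promoter-binding factors 3 were higher and 3 lower in PR-DUB OE, and 5 and 1 in KDM6B OE. Zfp296 had 385 and 298 FPKM at the 4-cell stage, against 189 and 211 FPKM at the 2-cell stage, in KDM6B OE (log2 change 0.76), and 198 and 188 FPKM, against 208 and 221 FPKM at the 2-cell stage, in PR-DUB OE (log2 change -0.15, not called). The RNA-binding group of 9 had 2 higher and 3 lower in PR-DUB OE and 3 and 3 in KDM6B OE, with Zfp346 and Zfp706 lower in both. The partners of chromatin enzymes had 1 higher and 3 lower of 7 in PR-DUB OE and 2 and 5 in KDM6B OE; Zfp644 was higher and Zfp217 lower in both. The lists hold some genes that are not members.

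Set beside the change from oocyte to late 2-cell embryo, 13 members were higher in the late 2-cell embryo and then lower at the 4-cell stage in both OE comparisons: Zfp217, Zfp281, Zfp346, Zfp367, Zfp408, Zfp513, Zfp599, Zfp664, Zfp703, Zfp706, Zfp707, Zfp949 and Zfp954. These are 13.1% of the 99 members tested at each step, beside 5.33% of all genes tested at each and 8.15% of those at 5 FPKM or more by the rule's mean. Choosing members by a level at the 2-cell stage favours this pattern, so nothing is read from the count. Zfp346, which binds double-stranded RNA, had 16.2 and 17.6 FPKM in late 2-cell embryos, against 0.659 and 1.27 FPKM in MII oocytes. It had 2.81 and 4.71 FPKM in PR-DUB OE 4-cell embryos, against 23.0 and 23.0 FPKM in PR-DUB OE 2-cell embryos. Each 2-cell library was thus above the oocyte or 4-cell libraries it was compared with. Higher at both steps were 4 members (4.04%, beside 11.9% of all genes), Zfp106, Zfp445, Zfp568 and Zfp644, and lower at both were 11 (11.1%, beside 14.3% of all genes), among them Zfp68, Zfp108, Zfp616, Zfp735 and Zfp750. Zfp207 alone was lower in late 2-cell embryos, with 51.1 and 46.9 FPKM against 83.3 and 58.3 FPKM in MII oocytes, and then higher at the 4-cell stage in both OE comparisons. Trim28 averaged 169 FPKM in PR-DUB OE 4-cell embryos, against 94.9 FPKM in PR-DUB OE 2-cell embryos, and 159 FPKM in KDM6B OE 4-cell embryos, against 85.9 FPKM in KDM6B OE 2-cell embryos, both called higher. Of 37 genes of that pathway 14 were higher and 9 lower at the 4-cell stage in PR-DUB OE, and 20 and 9 in KDM6B OE, beside the shares of all genes given above.

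PR-DUB overexpression was set against its control at the 4-cell stage. The ubiquitin mark that PR-DUB removes was not measured in the RNA libraries used here. Of the 100 members 6 were higher and 12 lower in PR-DUB OE embryos, beside 12.3% of all genes higher and 3.41% lower. Genes at 5 FPKM or more by the 2-cell mean of the rule were 12.9% higher and 4.77% lower. The members' median log2 change was -0.02 and that of all genes 0.13. After rescaling by median ratio, which brought the median of all genes to 0.00, 3 members were higher and 19 lower, with a median of -0.20. Of all 15055 genes tested 1181 were then higher and 949 lower. The groups did not overlap in 28 members that were higher and 31 that were lower, beside 39% and 18.8% of all genes. The other Zfp genes, with the 3 that were set aside, had 18 higher and 3 lower of 162 tested. KRAB members had 2 higher and 3 lower and the others 4 and 9. By role, 1 of 9 KRAB repressors of retroelements and imprinted loci was lower (Zfp809), 2 of 8 promoter-binding factors (Zfp281 and Zfp296) and 1 of 7 partners of chromatin enzymes (Zfp217), with none of these lists higher; of 9 RNA-binding proteins Zfp346 was higher and Zfp36 and Zfp622 lower. Markers of the 4-cell and later embryo summed to 173 to 201 FPKM in PR-DUB OE 4-cell libraries and to 107 to 133 FPKM in CTR libraries, with 5 to 6 and 4 of the 6 at 1 FPKM or more. Of 5 tested, Gata6 and Sox2 were called higher in PR-DUB OE. Not all of the list rises with stage. Between the OE stages Gata6, Nanog and Tead4 were higher at the 4-cell stage in both experiments. Sox2 was lower there in PR-DUB OE and Pou5f1 in KDM6B OE. The 8 markers of the 2-cell embryo summed to 526 and 181 FPKM in the PR-DUB OE and to 343 to 383 FPKM in the CTR libraries. Whether embryo progress has a part in these counts was not tested.

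Among members that fell, Zfp809, the repressor of murine leukaemia virus, had 35.0 and 50.1 FPKM in PR-DUB OE 4-cell embryos, against 83.0 and 90.2 FPKM in CTR embryos (log2 change -1.03, SE 0.19, limma adjusted p = 0.0046). Zfp622, the ribosome maturation factor, had 84.3 and 78.7 FPKM in PR-DUB OE, against 160 and 152 FPKM in CTR (log2 change -0.93, SE 0.13, limma adjusted p = 0.00126). Zfp217, the partner of LSD1 and CoREST, had 38.5 and 35.6 FPKM in PR-DUB OE, against 58.4 and 67.1 FPKM in CTR (log2 change -0.74, SE 0.14, limma adjusted p = 0.00536). In each of the 3 both OE libraries lay below both CTR libraries. Zfp281, a transcription factor of GC-rich promoters in pluripotent cells, had 1.41 and 1.91 FPKM in PR-DUB OE, against 4.25 and 3.76 FPKM in CTR (log2 change -0.92, SE 0.22, limma adjusted p = 0.018). Zfp654 fell by 0.81, Zfp408 by 0.76, Zfp513 by 0.72 and Zfp758 by 0.68. Smaller falls passed the test for Zfp821, Zfp36, Zfp296 and Zfp655; Zfp296 still had 198 and 188 FPKM in PR-DUB OE, against 282 and 257 FPKM in CTR.

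Among the 6 members that rose, Zfp770 had 12 and 12.3 FPKM in PR-DUB OE 4-cell embryos, against 4.30 and 4.85 FPKM in CTR embryos (log2 change 1.24, SE 0.24, limma adjusted p = 0.00652). Zfp609, a partner of the cohesin loader NIPBL in neural progenitors of the mouse, had 14.9 and 14.9 FPKM in PR-DUB OE, against 7.36 and 8.33 FPKM in CTR (log2 change 0.85, SE 0.16, limma adjusted p = 0.0054). Zfp599 had 12 and 8.24 FPKM in PR-DUB OE, against 3.31 and 5.85 FPKM in CTR (log2 change 1.01, SE 0.25, limma adjusted p = 0.0193). No OE library overlapped a CTR library in these 3. Zfp599 lies tail to tail with Zfp809 on chromosome 9, their ends 4076 bases apart, and these neighbours moved in opposite directions. Zfp623 rose by 0.81, Zfp346 by 0.75 and Zfp942 by 0.68. Zfp942 had 14.6 and 10.6 FPKM in PR-DUB OE, against 6.25 and 8.76 FPKM in CTR, while Zfp758, whose start lies in the shared chromosome 17 run, had 27.5 and 26.1 FPKM in PR-DUB OE, against 43.5 and 43.5 FPKM in CTR.

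Of the 14 named members 5 were called under every alternative run: Zfp217, Zfp609, Zfp622, Zfp770 and Zfp809. The other 9 each lost the call without at least 1 library, at limma adjusted p of 0.0531 to 0.296. Each of the 4 libraries ended calls: PR-DUB OE replicate 1 for 8 named members, PR-DUB OE replicate 2 for 4, and CTR replicates 1 and 2 for 7 each. The count over all members was 7 without PR-DUB OE replicate 1, 14 without PR-DUB OE replicate 2, 8 without CTR replicate 1 and 10 without CTR replicate 2, against 18 with all. Rescaling ended the calls of Zfp346 (limma adjusted p = 0.1), Zfp623 (0.062) and Zfp942 (0.082). Of 37 corepressor pathway genes 3 were higher in PR-DUB OE (Mphosph8, Mta1 and Rbbp4) and 1 lower: Zfp57, the imprint protector set aside from the members, averaged 5.79 FPKM in PR-DUB OE and 28.9 FPKM in CTR.

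**Figure D4:**
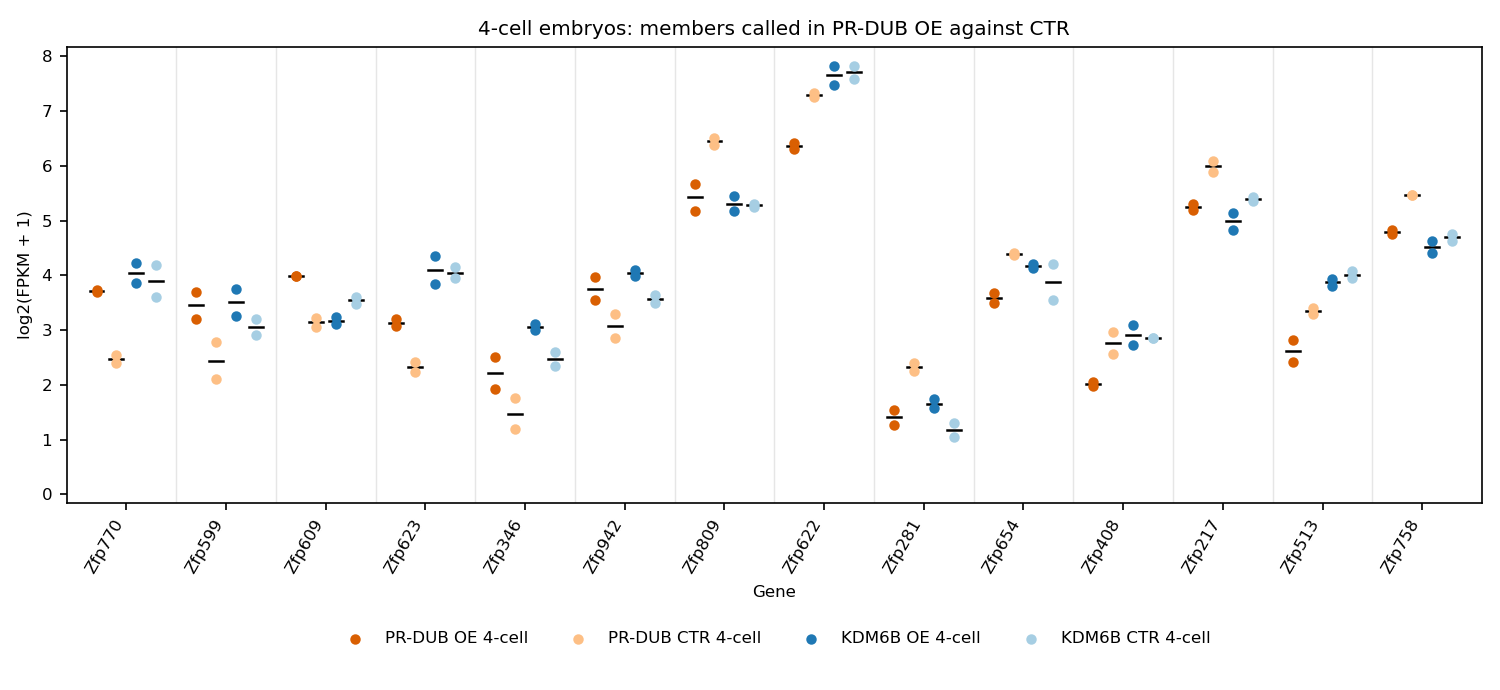
log2(FPKM + 1) of the 14 named members in PR-DUB OE and CTR and in KDM6B OE and CTR 4-cell libraries; points are libraries (n = 2 each) and bars their means. Zfp809 and Zfp622 are lower in PR-DUB OE than in PR-DUB CTR, and their KDM6B OE and CTR libraries overlap.

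In KDM6B OE embryos at the 4-cell stage no member was called (0 of 100, beside 0.359% of all genes), with 12 members at an unadjusted limma p under 0.05. The groups did not overlap in 13 members that were higher and 22 that were lower, beside 14.8% and 20.2% of all genes. Zfp277 came nearest, with 2.20 and 2.5 FPKM in KDM6B OE and 5.30 and 6.37 FPKM in KDM6B CTR (log2 difference -1.03, limma adjusted p = 0.078). Zfp936 had 49.3 and 43.1 FPKM in KDM6B OE and 72.9 and 61.8 FPKM in KDM6B CTR (log2 difference -0.53, limma adjusted p = 0.187). For these neither pair of libraries overlapped, yet the adjusted p did not pass the threshold. Zfp809 had 42.5 and 35.1 FPKM in KDM6B OE and 38.7 and 37.1 FPKM in KDM6B CTR, and Zfp622 had 177 and 227 FPKM in KDM6B OE and 227 and 192 FPKM in KDM6B CTR, with overlapping groups.

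The PR-DUB and KDM6B effects at the 4-cell stage were then compared with each other. The difference of effects passed the test for 7 members, 2 higher and 5 lower under PR-DUB, beside 7.24% of all genes higher, 2.03% lower and 9.27% in either direction. Zfp609 had an effect of 0.85 under PR-DUB and of -0.37 under KDM6B (difference 1.22, limma adjusted p = 0.0101). Zfp622 had effects of -0.93 and -0.06 (difference -0.87, limma adjusted p = 0.0153), and Zfp281 of -0.92 and 0.49 (difference -1.40, limma adjusted p = 0.0213). Zfp809 had effects of -1.03 and 0.03 (difference -1.05, limma adjusted p = 0.0308). Zfp277, Zfp654 and Zfp655 made up the 7. None of the 7 was called when only the 8 libraries of the 4-cell groups were fitted, which leaves fewer libraries to estimate the spread. Leaving out 1 library gave 1 to 12 calls, and each of the 8 libraries but KDM6B CTR replicate 1 ended at least 1 of the 7, with limma adjusted p of 0.0515 to 0.122.

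In Eed matKO embryos no member was called either (0 of 98 tested, beside 0.0171% of all genes), with 4 members at an unadjusted limma p under 0.05; Zfp735 and Zfp750 did not pass the filter of 1 FPKM in 2 libraries. Of the 98, 63 had a negative log2 difference, and of 41 KRAB members 31 (median -0.13), with medians of -0.01 for members without the box and 0.01 for all genes. The difference was negative in 5713 of all 11679 genes and in 81 of 116 other Zfp genes tested (median -0.17). The groups did not overlap in 10 members that were higher and 24 that were lower, beside 20.7% and 18.7% of all genes. Zfp758 had 23.1 and 19.0 FPKM in Eed matKO and 32.8 and 31.1 FPKM in Eed CTR (log2 difference -0.59, limma adjusted p = 0.474). Zfp946 had 1.56 and 2.44 FPKM in Eed matKO and 4.10 and 4.42 FPKM in Eed CTR (log2 difference -0.82, limma adjusted p = 0.544). Both had matKO libraries below CTR libraries, with differences that the test over 2 residual degrees of freedom did not call. Zfp330 lay the other way, with 32.7 and 31.4 FPKM in Eed matKO and 25.5 and 24.7 FPKM in Eed CTR.

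**Figure D5:**
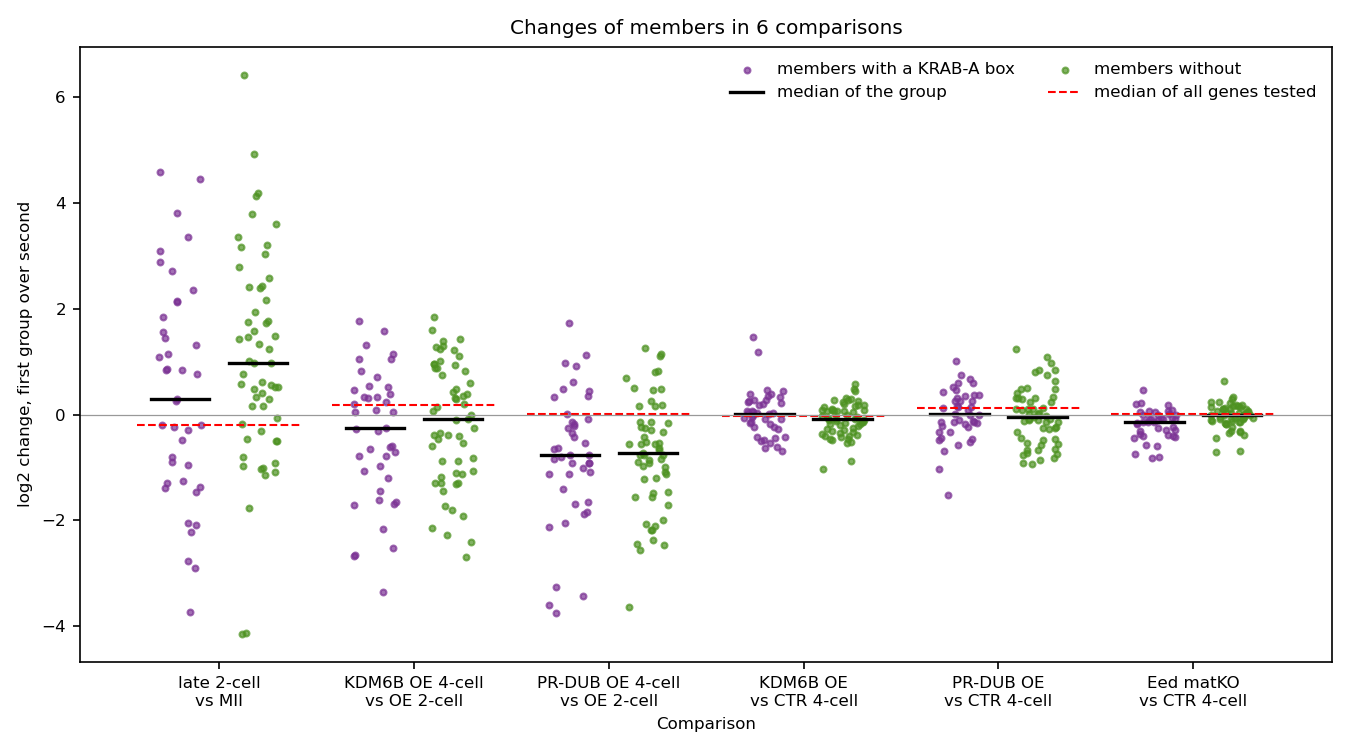
log2 change of each member in 6 comparisons, with members split by whether a KRAB-A box was found; points are members, black lines their medians and dashed lines the median of all genes tested. The members spread most between late 2-cell embryos and MII oocytes and least in Eed matKO against CTR, and in late 2-cell against MII the members without the box have the higher median (0.97 against 0.29).

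The comparisons with CTR 2-cell libraries, whose levels chose the members, are given as values, and nothing is read from their counts. At the 2-cell stage 1 member was past the threshold under PR-DUB, on the lower side, beside 0.193% of all genes: Zfp217, with 55.0 and 55.2 FPKM in PR-DUB OE and 88.2 and 88.0 FPKM in CTR. That call was lost with the replicate block, with the compared groups alone and without any 1 library. Zfp1 had 23.4 and 26.5 FPKM in PR-DUB OE and 41.2 and 38.3 FPKM in CTR, and Zfp958 had 29.1 and 23.3 FPKM in PR-DUB OE and 13.9 and 15.3 FPKM in CTR. Zfp961 varied within its control group, with 12 and 8.50 FPKM in PR-DUB OE and 11.2 and 38.6 FPKM in CTR. Under KDM6B 0 members were past it, beside 0.757% of all genes; Zfp410 had 12.4 and 14.8 FPKM in KDM6B OE and 7.50 and 6.79 FPKM in CTR, and Zfp664 had 74.6 and 73.8 FPKM in KDM6B OE and 94.1 and 119 FPKM in CTR. From the 2-cell to the 4-cell stage of CTR embryos, 14 members were higher and 51 lower at the 4-cell stage in PR-DUB CTR (26.5% and 30.2% of all genes), and 38 and 33 in KDM6B CTR (38% and 26.1%). After rescaling by median ratio the KDM6B CTR tally turned to 26 members higher and 44 lower (median -0.43, against -0.04 as deposited), and that of all genes to 4683 higher and 4834 lower. Zfp809 had 83.0 and 90.2 FPKM in PR-DUB CTR 4-cell libraries, against 39.8 and 28.8 FPKM in PR-DUB CTR 2-cell libraries. Zfp735 had 0.715 and 0.666 FPKM in PR-DUB CTR 4-cell libraries, against 16.1 and 20.4 FPKM in PR-DUB CTR 2-cell libraries.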

How the data were processed

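The deposited values are FPKM. Per the submitters' processing notes the authors' tools were StringTie 1.3.3b, HISAT2 2.1.0 and Trim Galore 0.6.5, with the mm10 build; libraries came from a stranded low-input SMART-Seq kit and paired reads of 76 bases, per the labels' protocols. They come as 3 tables: 16 PR-DUB and KDM6B libraries and 4 Eed libraries (46078 genes each), and 4 MII and late 2-cell libraries (55573 genes, another annotation release). Each was analysed on its own. Per the labels, the first 12 samples were run on a NextSeq550 and the rest (12: Eed, KDM6B 4-cell, late 2-cell and MII) on that instrument or a HiSeq2000. Groups follow the titles; the manipulation field names PR-DUB for the KDM6B OE 2-cell libraries, and the Eed knockout titles say OE where that field, followed here, says matKO. Columns headed 30hpf were taken as the late 2-cell libraries.

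Read counts were not used. Taking the smallest step of FPKM times length as 1 fragment gives 11.5 to 20.4 M mapped fragments a library, or 115 to 204 fragments for a 2 kb gene at 5 FPKM; reads copied by PCR are not independent, so this covers counting error only. Separate collections are not stated for the libraries of a group, so p-values measure the spread between these libraries.

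FPKM were transformed to log2(FPKM + 1), which understates fold changes of low genes. Tested were genes at 1 FPKM or more in 2 or more of a table's libraries (15055, 11679 for Eed, 13237 for late 2-cell and MII) with limma 3.58.1 in R 4.3.3 (eBayes with trend, two-sided, Benjamini-Hochberg over all genes tested, called at an adjusted p under 0.05). The 16 libraries were fitted as group means with 8 residual degrees of freedom, and the other tables with 2. An exact permutation test of 2 against 2 libraries cannot go below 0.333. Errors of log2 changes are standard errors (SE). All 100 members passed the filter in the first table, 98 in the Eed table and 99 in the late 2-cell and MII table.

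Named members are, per comparison, up to 8 called in each direction with the largest change (up to 5 for the stage comparisons and the difference of effects), the 10 highest by the rule's mean, and those just inside and outside the threshold; others named were chosen after their values were seen. KRAB-A boxes and fingers were found by motif in translated GENCODE vM21 coding sequences, and 76-base stretches were matched between its transcripts; promoters are RefSeq's. Members and lists were chosen with earlier results of these data known. Alternatives were another pseudocount (0.1), no filter, rescaling by median ratio, a replicate block, the compared groups alone and leaving out each library.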

Additional observations from a re-analysis of the deposited data

Results flagged for a closer look

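For 7 members the effect of PR-DUB overexpression and that of KDM6B overexpression at the 4-cell stage differed by the test of the difference itself (limma, 9.27% of all genes passed). The PR-DUB effect minus the KDM6B effect, on the log2(FPKM + 1) scale, was 1.32 for Zfp277 (adjusted p = 0.0272), 1.22 for Zfp609 (0.0101), -1.40 for Zfp281 (0.0213), -1.11 for Zfp654 (0.0303), -1.05 for Zfp809 (0.0308), -0.87 for Zfp622 (0.0153) and -0.70 for Zfp655 (0.0359). Zfp277 had 6.51 and 4.32 FPKM in PR-DUB OE, against 3.95 and 4.33 FPKM in PR-DUB CTR, and 2.20 and 2.5 FPKM in KDM6B OE, against 5.30 and 6.37 FPKM in KDM6B CTR. Zfp655 had 46.2 and 55.4 FPKM in PR-DUB OE, against 73.2 and 67.6 FPKM in PR-DUB CTR, and 65.0 and 65.4 FPKM in KDM6B OE, against 57.5 and 53.4 FPKM in KDM6B CTR, so no OE library overlapped its CTR libraries in either experiment and the directions were opposite. Zfp654 had 10.2 and 11.8 FPKM in PR-DUB OE, against 20.4 and 19.7 FPKM in PR-DUB CTR, with overlapping KDM6B groups. The KDM6B and PR-DUB 4-cell libraries belong to different sequencing sets, and each effect was measured within its own set.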

How the results depend on the processing

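No named member changed sign. After rescaling by median ratio the tally of all genes turned in late 2-cell against MII (5758 higher and 5160 lower), in the KDM6B OE stage comparison (4406 and 4498) and in the KDM6B CTR one (4683 and 4834, with 26 members higher and 44 lower). The count of called members moved beyond 1.5 times in 4 comparisons. For PR-DUB OE against CTR at the 4-cell stage (18) it was 7 to 14 when 1 library was left out. For the difference of effects (7) it was 11 after rescaling by median ratio, 0 with the compared groups alone and 1 to 12 with 1 library left out. For PR-DUB OE against CTR at the 2-cell stage (1) it was 0 with the replicate block, 0 with the compared groups alone and 0 without any 1 library. For KDM6B OE against CTR at the 2-cell stage (0) it was 0 to 1 with 1 library left out. With 1 library left out, the lone library of a group is assumed to vary like the other groups. The cause of these shifts was not tested, beyond the fewer libraries that the fits rest on.

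The replicate block gave 17 called members for PR-DUB OE against CTR at the 4-cell stage and 7 for the difference of effects. Same-numbered libraries shared only a number: their deviations correlated across genes at -0.06 to 0.04. Among the named members the block ended 1 call (Zfp346), rescaling 4 of 57, no filter 2, a pseudocount of 0.1 none, and the compared groups alone 14 of 41. That last setting is the fit already used for the Eed and the late 2-cell and MII tables. With 2 libraries a group, small changes of low members could not be told from the spread; members near 5 FPKM rest on about 100 to 200 fragments per 2 kb.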
